A study of Mus musculus with 6 samples.

Results

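Transcripts of 7 genes of the cholesterol pathway, Hmgcs1, Sqle, Insig1, Srebf2, Idi1, Fdps and Lss, were followed in mouse B-cell acute lymphoblastic leukaemia during fasting. They were taken by gene name from each of the 6 deposited tables, and all 7 were found once in every table, out of 37732 genes that could be joined over the libraries. They comprise 5 enzymes of synthesis and 2 regulators. No uptake gene is among them. Per the labels, C57BL/6 mice were transplanted with lineage-negative fetal liver cells carrying N-Myc and a GFP reporter. Diseased mice were fed normally (control), fasted for 1 day or fasted for 2 days, and GFP+B220+ cells were sorted from bone marrow. All groups carry the same oncogene and were sorted with the same gate, the disease was driven by 1 oncogene, and the labels used here state neither the number of mice per library nor their age. The 6 libraries come as pairs, 1 pair for each of the 3 groups, whose replicate numbers 1 and 2 are given below as run 1 and run 2. The runs of a group differed by little more than read sampling for most genes, so each group was counted as 1 sample. No difference between groups therefore has a replicate check, and no p-value is given.

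Cholesterol is made from acetyl-CoA through mevalonate and squalene. Hmgcs1 encodes the cytosolic synthase that makes HMG-CoA, Idi1 the isomerase that interconverts the pathway's 5-carbon units, and Fdps the synthase of farnesyl diphosphate, from which sterols and prenyl groups are made. Sqle encodes squalene epoxidase, a rate-controlling step, and Lss the cyclase that forms lanosterol. Srebf2 encodes SREBP-2, the membrane-bound transcription factor that is cut and released when sterols are scarce and that raises transcription of the synthesis genes, Insig1 and Srebf2 itself. Insig1 encodes an endoplasmic reticulum protein that retains SREBPs when sterols are plentiful, and it is itself an SREBP target. Proliferating lymphoid cells need sterols for new membrane.

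Promoter sequences are shown because SREBP-2 acts through short elements in the promoters of its target genes. Of the 7 genes, 5 matched a RefSeq window (GRCm38.p6) running from 250 bases before to 50 bases after the start site, namely Hmgcs1, Insig1, Srebf2, Idi1 and Lss. Sqle and Fdps were not matched. The 250 bases before the start are printed for a synthesis gene and for Srebf2, the member with the largest difference, both on the plus strand. Capitals mark 8 or 9 letters of the sterol regulatory element and the box CCAAT of the factor NF-Y, which reads ATTGG on the printed strand.
Hmgcs1, chr13:119690101-119690350: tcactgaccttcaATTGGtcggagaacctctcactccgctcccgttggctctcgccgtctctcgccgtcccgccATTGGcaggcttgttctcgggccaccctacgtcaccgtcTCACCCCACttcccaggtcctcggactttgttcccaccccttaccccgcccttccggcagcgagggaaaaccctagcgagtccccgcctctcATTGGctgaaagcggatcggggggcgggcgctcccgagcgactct
Srebf2, chr15:82147019-82147268: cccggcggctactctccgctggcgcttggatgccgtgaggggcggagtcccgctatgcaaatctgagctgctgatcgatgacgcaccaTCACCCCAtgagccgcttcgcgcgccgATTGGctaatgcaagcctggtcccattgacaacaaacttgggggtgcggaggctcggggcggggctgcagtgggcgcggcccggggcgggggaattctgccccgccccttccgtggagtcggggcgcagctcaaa

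Both strands of the 300-base windows were searched. The letters TCACCCCAC, a form of the sterol regulatory element, were found in Hmgcs1, starting at base -137 from the start site, and in 0.551% of 32851 windows of the table. The looser forms TCACNCCAC and TCACNNCAC, which overlap it, occur in 1.24% and 3.77% of windows and matched the same place in Hmgcs1 alone among the 5. The first 8 letters, TCACCCCA, were searched after the sequences had been seen. They also occur in Srebf2, at base -162, and in 1.56% of windows. CCAAT was found in 5 of 5 windows against 37.4% of all windows, with 4 sites in Hmgcs1, 1 of them after the start, 2 in Idi1 and 1 each in Insig1, Lss and Srebf2. The GC box GGGCGG was found in 5 of 5 against 35.7%, and the E-box CACGTG in Insig1 alone against 7.15%. These are letter matches in a short window and were not linked to the expression values.

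Total gene reads per library ranged from 19368326 to 45862844, and 2-day run 2 was the shallowest. Of the joined genes, 14236 passed a filter on low counts, all 7 members among them. Between runs of a group, squared differences on unique gene reads had a median of 1.10 times the read-sampling variance in all 3 groups, against 5.89 to 19.2 between groups. On total gene reads, the class behind the levels below, the medians were 1.35 to 1.38 within groups, with 3.95% to 4.78% of genes over 3 SD, against 6.93 to 21.1 between groups. B-lineage markers, which check the sorted cells, summed to between 2690 and 3160 counts per 1000000 scaled reads (CPM) over the libraries. Markers of other marrow cells were present and moved between groups. The 10 neutrophil genes summed to 1010 and 1040 CPM in the control runs, 663 and 696 after 1 day, and 901 and 910 after 2 days. After 2 days Mmp8 (29.5 against 18.3 CPM), Retnlg (32.0 against 19.6), Lcn2 and Elane had means above control. The means of the other neutrophil genes, among them S100a9 (233 against 287 CPM), were below control. The 10 erythroid genes summed to 1070 and 1090, 1190 in both runs, and 1700 and 1680 CPM. Tfrc alone had means of 634, 625 and 703 CPM, and the globin gene Hbb-bs 152, 201 and 400. After 2 days only Klf1 and Epor of the 10 had means below control. The 9 monocyte, macrophage and dendritic cell genes summed to 99.6 and 99.8, 90.9 and 91.4, and 156 and 147 CPM. Most of this was Lyz2, with means of 73.5, 60.0 and 104 CPM. The 10 T-cell and NK-cell genes summed to at most 7.08 CPM. None of these 39 markers was at 0 in all libraries, and their part in the results below was not tested. In bulk RNA a lower share of expressing cells and less transcript per cell cannot be told apart.

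Srebf2 was lower after 2 days of fasting, while the 6 other members stayed within 0.322 of control on the log2 scale in both fasted samples. Srebf2 (chromosome 15, 82147266 to 82205376 of mm10) stood at 135.0 and 141.8 CPM in control run 1 and run 2, 122.9 and 124.9 CPM after 1 day, and 85.9 and 82.2 CPM after 2 days. Its runs did not overlap between any of the groups, and the order was control, 1 day, 2 days. Here and below, the share of all genes whose runs separate in this way was not counted. On total gene reads 30.1% to 51.1% of genes differed between groups by over 3 SD of read sampling. Separation of the runs alone therefore does not mark out a gene. The 2-day mean of 84.1 CPM was 39.2% below the control mean of 138.4 CPM, a log2 fold of -0.72 (-0.65 in run 1 and -0.79 in run 2). The ratio of pooled reads was 0.607, with a 95% exact interval of 0.586 to 0.629 that covers counting error only. After 1 day the mean was 123.9 CPM, a log2 fold of -0.16 (-0.14 and -0.18) and a ratio of 0.891 (0.865 to 0.917). Between the fasted samples the log2 fold was -0.56 (-0.52 and -0.60), with a ratio of 0.682 (0.658 to 0.706).

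**Figure D1:**
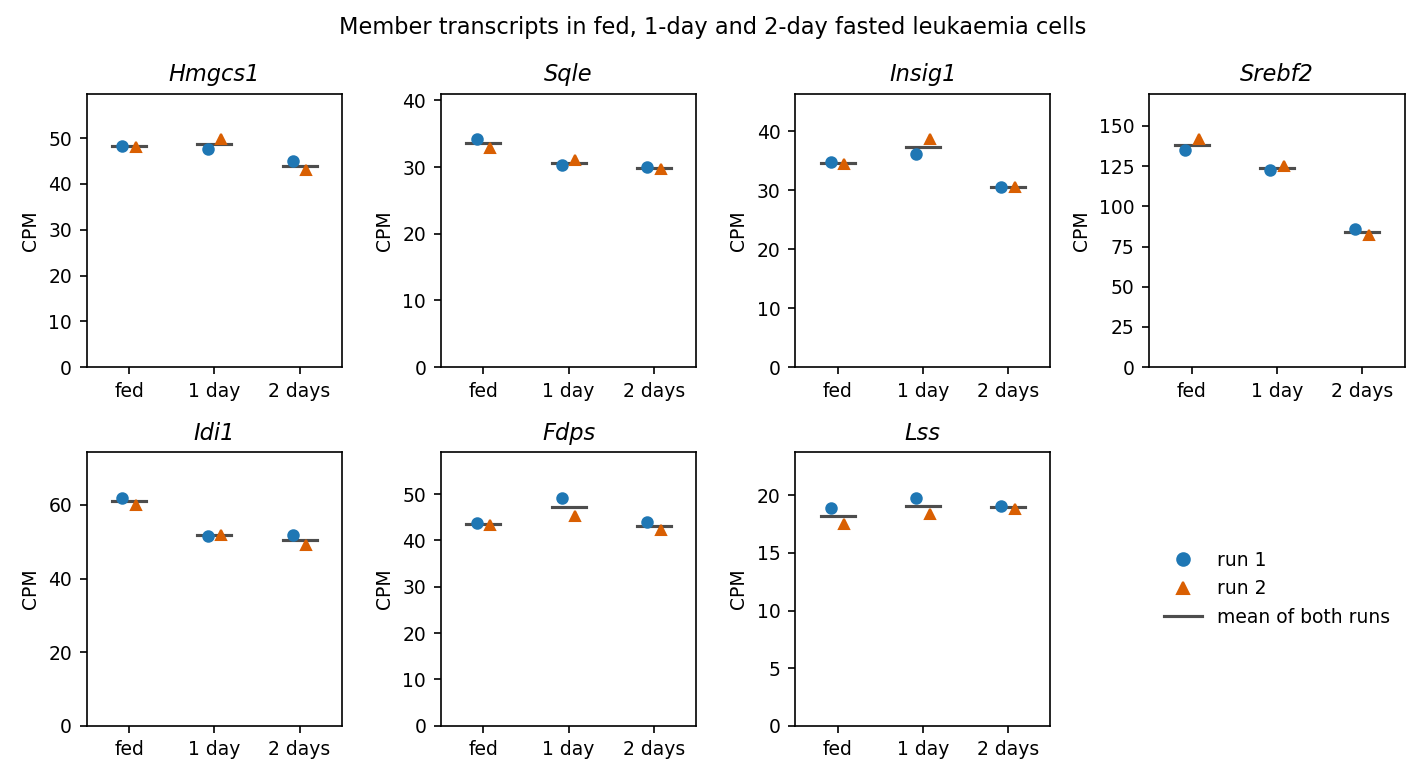
Scaled read level (CPM, axis from 0) of each member in fed control, 1-day and 2-day fasted leukaemia cells; circles are run 1, triangles run 2 and bars the mean of both runs, counted as 1 sample per group. Srebf2 goes from a mean of 138.4 to 84.1 CPM after 2 days, while Hmgcs1, Fdps and Lss stay close to their control level.

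A gene was called when its mean and each run differed by at least 1.5-fold, a log2 fold of 0.585, in 1 direction. After 1 day against control, 0 of 7 members were called, where 4.34% of the 14236 genes were called higher and 2.75% lower. After 2 days against control Srebf2 was called lower and 0 members higher. The share of 14.3% (1 of 7) stands beside 10.2% of all genes called lower and 9.27% higher, so it is near the background. In the 2-day sample against the 1-day sample, 0 members were called, against 5.35% of all genes higher and 8.75% lower. The absolute log2 fold of Srebf2 after 2 days was larger than that of 80.0% of all genes. All genes here include genes at lower CPM than any member, and the shares among genes of like level were not counted. With a log2 fold of 0.322 as a looser limit, 0 members were called after 1 day, where 9.51% of all genes were higher and 7.25% lower. At that limit Srebf2 alone was called after 2 days against control, with 17.1% of all genes higher and 17.2% lower, and Srebf2 alone between the fasted samples, with 11.4% higher and 14.6% lower.

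The median log2 fold of the 7 members was 0.01 after 1 day, -0.17 after 2 days and -0.13 between the fasted samples, beside 0.01, 0.00 and -0.01 for all genes. Of the members, 6 of 7 had negative values after 2 days and 7 of 7 between the fasted samples, where 7121 and 7404 of the 14236 genes had negative ones. These tallies rest in part on values near 0. Scaled by library size alone, Sqle (0.013), Idi1 (0.016) and Lss (0.043) were positive between the fasted samples and Fdps (0.043) was positive after 2 days. The median between the fasted samples was -0.072 without 1-day run 1, and the 1-day median was -0.085 on unique reads and -0.016 without 1-day run 2. Comparisons with control share the control libraries, so their values are not independent.

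Among the 3 members of the mevalonate arm, Idi1 had the lowest log2 folds and Fdps was close to its control level after 2 days. Hmgcs1 (chromosome 13, 119690462 to 119708086) stood at 48.4 and 48.1 CPM in the control runs, 47.7 and 49.8 after 1 day, and 45.0 and 43.0 after 2 days. Its 1-day runs bracketed the control runs, and both 2-day runs lay below all others. The log2 folds were 0.01 after 1 day and -0.13 after 2 days, and the 2-day ratio was 0.919 (95% exact interval 0.872 to 0.969, counting error only).

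Idi1 (chromosome 13, 8885501 to 8892451) stood at 62.0 and 60.0 CPM in control, 51.5 and 51.8 after 1 day, and 51.8 and 48.99 after 2 days. Both fasted samples lay below control in every run and overlapped each other. The log2 folds against control were -0.24 after 1 day and -0.28 after 2 days, with ratios of 0.852 (0.815 to 0.891) and 0.838 (0.798 to 0.879), and the difference between the fasted samples was -0.04. Fdps (chromosome 3, 89093592 to 89101967, minus strand) stood at 43.7 and 43.3 CPM in control, 49.2 and 45.3 after 1 day, and 43.9 and 42.3 after 2 days. The 1-day runs were the highest, and the 2-day runs overlapped control. Its log2 folds were 0.12 (0.17 and 0.07) and -0.01 (0.01 and -0.03), and the 2-day ratio of 0.998 had an interval of 0.945 to 1.05.

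Of the 2 sterol-arm enzymes, Sqle was slightly below control in both fasted samples, and Lss was not distinguished from control. Sqle (chromosome 15, 59315077 to 59331192) stood at 34.2 and 32.9 CPM in control, 30.3 and 31.1 after 1 day, and 30.0 and 29.7 after 2 days. No fasted run reached the control runs, and the log2 folds were -0.13 and -0.17. The ratios were 0.922 (0.869 to 0.979) after 1 day and 0.897 (0.841 to 0.956) after 2 days. Lss (chromosome 10, 76531588 to 76557138) stood at 18.9 and 17.5 CPM in control, 19.8 and 18.4 after 1 day, and 19.1 and 18.9 after 2 days. Its groups overlapped, with log2 folds of 0.07 and 0.06 and intervals of the ratio that include 1 (0.971 to 1.14 and 0.970 to 1.15). The Lss value was 0.013 after 1 day without 1-day run 1 and 0.016 without control run 2, and 0.006 after 2 days without control run 2.

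Insig1, the sterol-sensing retention factor, was the member whose fasted samples lay on opposite sides of control in both runs. It is encoded on chromosome 5 (28071363 to 28078662) and stood at 34.7 and 34.4 CPM in control, 36.1 and 38.6 after 1 day, and 30.5 in both runs after 2 days. The 3 groups did not overlap, with the 1-day sample highest and the 2-day sample lowest, and the share of all genes that do so was not counted. The log2 folds were 0.11 (0.06 and 0.17) after 1 day and -0.18 (-0.19 and -0.17) after 2 days. Between the fasted samples the log2 fold was -0.29 (-0.24 and -0.34), with a ratio of 0.811 (0.763 to 0.862), the second largest absolute value among the members after Srebf2.

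The transcript of SREBP-1, the related factor better known for fatty acid genes, differed little from control: Srebf1 had 73.5, 76.3 and 76.5 CPM.

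**Figure D2:**
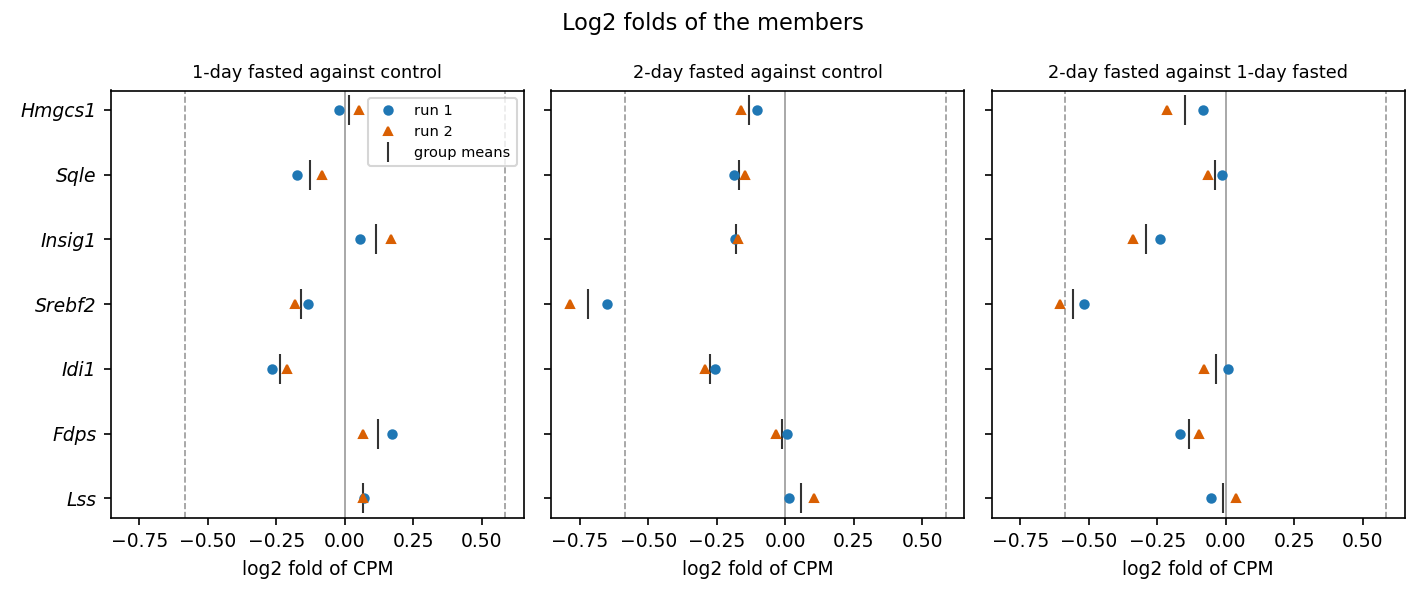
Log2 fold of CPM for the 7 members in each comparison; circles are run 1, triangles run 2, ticks the group means, and dashed lines mark 1.5-fold. In the comparison of 2 days with control only Srebf2, at -0.72, has its mean and both runs past a dashed line.

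Read classes give a further view of the same genes. Intron reads, which can come from unspliced RNA, made up 13.5% of the gene reads of Insig1, 7.95% of Sqle, 7.05% of Srebf2 and between 0.901% and 4.10% of the other members. For Srebf2, intron reads numbered 607 in control, 659 after 1 day and 341 after 2 days, beside 8419, 8353 and 4421 exon reads. The 2-day to control ratio was 0.647 on intron reads (0.565 to 0.740) and 0.605 on exon reads (0.583 to 0.627), so both classes were lower to a like degree. The 1-day to control ratio was 0.968 on intron reads (0.866 to 1.08) and 0.885 on exon reads (0.859 to 0.912).

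The ratios of Insig1 were farther from 1 on intron than on exon reads. Its intron reads numbered 288, 426 and 189, a ratio to control of 1.32 (1.13 to 1.54) after 1 day and 0.756 (0.626 to 0.911) after 2 days, while its exon ratios were 1.06 (0.995 to 1.12) and 0.904 (0.844 to 0.967). Between the fasted samples the Insig1 ratio was 0.573 on intron reads (0.480 to 0.681) and 0.855 on exon reads (0.801 to 0.912), and these intervals do not meet. Fdps had 96, 142 and 75 intron reads, with a 1-day ratio of 1.32 (1.01 to 1.73) beside 1.07 (1.02 to 1.13) on exon reads. Between the fasted samples the Fdps ratios were 0.682 (0.508 to 0.908) on intron and 0.936 (0.887 to 0.987) on exon reads, and in both comparisons the intervals of the classes overlap. Sqle had 184, 166 and 133 intron reads, with a 1-day ratio of 0.805 (0.648 to 0.998) beside 0.933 (0.877 to 0.993) on exon reads. Lss had 57, 60 and 31 intron reads, with 6 in the shallowest library. Its 2-day intron ratio of 0.626 (0.391 to 0.986) lay on the other side of 1 from its exon ratio of 1.08 (0.988 to 1.17). Hmgcs1 and Idi1 had at most 53 intron reads in any sample, and their intron intervals include 1 in all comparisons.

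**Figure D3:**
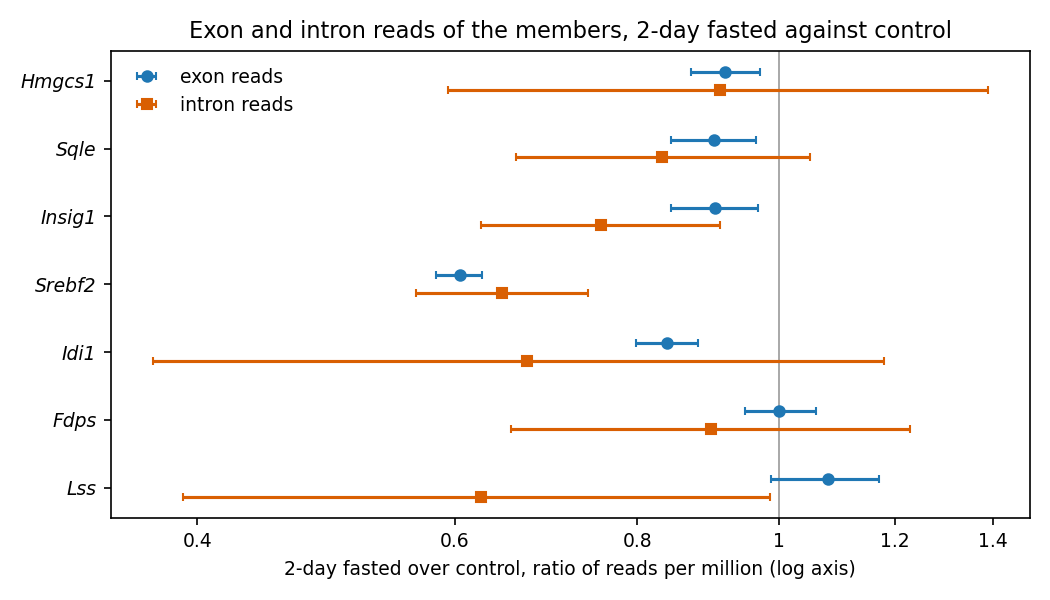
Ratio of scaled reads in the 2-day fasted sample over control (log axis) for each member; circles are exon reads, squares intron reads, and bars 95% exact intervals on pooled reads that cover counting error only. On exon reads Srebf2 lies at 0.605 and the other members between 0.839 and 1.08, while on intron reads Lss (0.626), Srebf2 (0.647) and Idi1 (0.672) lie close together, with wide intervals for Lss and Idi1.

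Reads that also map elsewhere limit 3 members. Unique reads made up 99.9% of gene reads for Hmgcs1, Sqle and Srebf2 and 100% for Insig1, but 72.2% for Idi1, 44.0% for Lss and 36.7% for Fdps, whose levels are therefore uncertain. On unique reads the 2-day log2 folds were -0.25 for Idi1, 0.04 for Lss and -0.09 for Fdps, and the Lss value after 1 day changed sign to -0.08. The Lss locus also overlaps 4930483K19Rik, with 181 reads over the 6 libraries beside 538 unique Lss reads in control alone, and whether counting used strand is not stated.

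Levels can be compared between genes only per length, on the authors' deposited RPKM values (gene reads scaled by exon length and mapped reads). In control the means were 32.6 RPKM for Fdps, 25.8 for Srebf2, 16.2 for Idi1, 13.9 for Hmgcs1, 11.9 for Insig1, 5.63 for Sqle and 1.57 for Lss. After 1 day they were 35.7, 23.3, 13.8, 14.1, 12.99, 5.19 and 1.66 RPKM for the genes as just listed, and after 2 days 33.2, 16.1, 13.7, 12.98, 10.8, 5.14 and 1.68 RPKM. The order of the means was the same in control and after 2 days, while after 1 day Hmgcs1 stood above Idi1. These means count reads that also map elsewhere. With 36.7% unique reads for Fdps and 72.2% for Idi1, their places in the order are uncertain. After 1 day Idi1 and Hmgcs1 did not differ beyond their runs (13.8 and 13.9 against 13.8 and 14.4 RPKM), while in control Idi1 was above Hmgcs1 in both runs. Srebf2 and its neighbour Idi1 were closest after 2 days, with Srebf2 runs at 16.3 and 15.9 and Idi1 runs at 13.98 and 13.5 RPKM. The exon lengths used are those of the authors' gene models, 10787 bases for Lss against 1241 for Fdps, and reads that fall in introns are counted in the RPKM.

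The rest of the pathway was described with 6 lists of 76 genes, 69 of them not members and 67 of these measured. After 1 day 3 of the 67 were called higher and 1 lower (4.48% and 1.49%), after 2 days 7 and 1 (10.4% and 1.49%), and between the fasted samples 3 and 2. These counts stand beside 4.34% and 2.75%, 9.27% and 10.2%, and 5.35% and 8.75% of all genes. The same shares of all genes apply to the counts by list below. The median log2 folds of the 67 were 0.08, 0.08 and 0.07.

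In the arm from acetyl-CoA to squalene, 0 of 9 genes were called in any comparison, members included. After 2 days 8 of 9 had negative log2 folds (median -0.19), where 7121 of the 14236 genes did. Fdps was among these at -0.01, and its sign changed in 4 of 11 settings. The mevalonate kinase gene Mvk had the lowest log2 fold, at 5.26 CPM against 8.39 in control (-0.66; -0.46 and -0.88). Mvd, the decarboxylase gene, had the only positive one, at 3.40 against 2.69 CPM (0.33). In the arm from squalene to cholesterol, 1 of 12 was called, after 2 days. There 8 of 12 had positive log2 folds (median 0.14), where 7114 of the 14236 genes did. The called gene was Tm7sf2, a sterol reductase gene, at 8.06 against 5.24 CPM (0.61; 0.64 and 0.59). Ebp, encoding the sterol isomerase (47.9 against 32.2 CPM, 0.57), was below the limit. Taking both arms as 21 enzymes, the median after 2 days was -0.02, beside 0.00 for all genes.

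Among 14 genes of SREBP control, 0 were called after 1 day, and after 2 days Srebf2 was called lower and Rnf139 higher. Rnf139, a ubiquitin ligase gene of the endoplasmic reticulum, was at 4.39 against 2.58 CPM (0.74; 0.75 and 0.73), with 53.6% unique reads. The ligase gene Rnf145 (110.1 against 74.1 CPM, 0.57; 0.62 and 0.52) fell short in the mean and in run 2. Scap, encoding the SREBP escort protein, was at 196.7 against 219.3 CPM (-0.16), and the protease genes Mbtps1 and Mbtps2, whose products cut SREBPs, were at -0.06 and 0.02.

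Uptake and intracellular transport had 14 measured genes of 15, with Vldlr too low to measure. After 1 day 1 of them was called higher, and the receptor gene Lrp1 was called lower. Lrp1 was at 1.64 against 3.32 CPM after 1 day (-0.98) and at 2.87 CPM after 2 days, and was called higher after 2 days than after 1 day (0.78). After 2 days the lipoprotein receptor gene Lrp8 was called lower, from 335 to 63 reads and 5.24 to 1.08 CPM (-2.18; -2.09 and -2.30), with 3.56 CPM after 1 day. Npc1 and Npc2, which move cholesterol out of lysosomes, were called higher after 2 days, Npc1 at 16.5 against 10.6 CPM (0.64) and Npc2 at 202.1 against 127.3 CPM (0.67).

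Efflux, storage and oxysterols had 11 measured genes of 12, with Ch25h too low. Of the 11, 2 were called higher after 1 day and 3 after 2 days, and 0 lower in either. These are 18.2% and 27.3%, beside 4.34% and 9.27% of all genes higher and 2.75% and 10.2% lower. Between the fasted samples 2 were called higher and 1 lower, beside 5.35% and 8.75% of all genes. The 2-day median was 0.42. Abcg1, which encodes a sterol export transporter, had 20.7 and 23.1 CPM in the control runs, 28.3 and 27.6 after 1 day, and 48.2 and 46.7 after 2 days. Its groups did not overlap, and the log2 fold after 2 days was 1.11 (1.21 and 1.01). Apoe, an apolipoprotein that macrophages express, was called higher after 1 day (0.64) and after 2 days (0.68), at 20.9 and 21.5 against 13.4 CPM. Of the 9 monocyte, macrophage and dendritic cell markers, 1 was called higher and 0 lower after 1 day, when their sum was below control (90.9 and 91.4 against 99.6 and 99.8 CPM). Most of that sum was Lyz2, at 60.0 against 73.5 CPM. Apart from Lyz2 and Itgax, the markers had means above control after 1 day. After 2 days 4 were called higher and 1 lower, and their sum was above control (156 and 147 CPM). Their part in these values was not tested. Cyp27a1, encoding sterol 27-hydroxylase, was at 3.90 against 1.74 CPM after 1 day (1.12) and back at 1.95 CPM after 2 days. Soat2, a cholesterol esterification gene, was called higher after 2 days (1.31) on 7 and 25 reads, and its sister Soat1 was at 10.6 against 7.88 CPM (0.42).

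**Figure D4:**
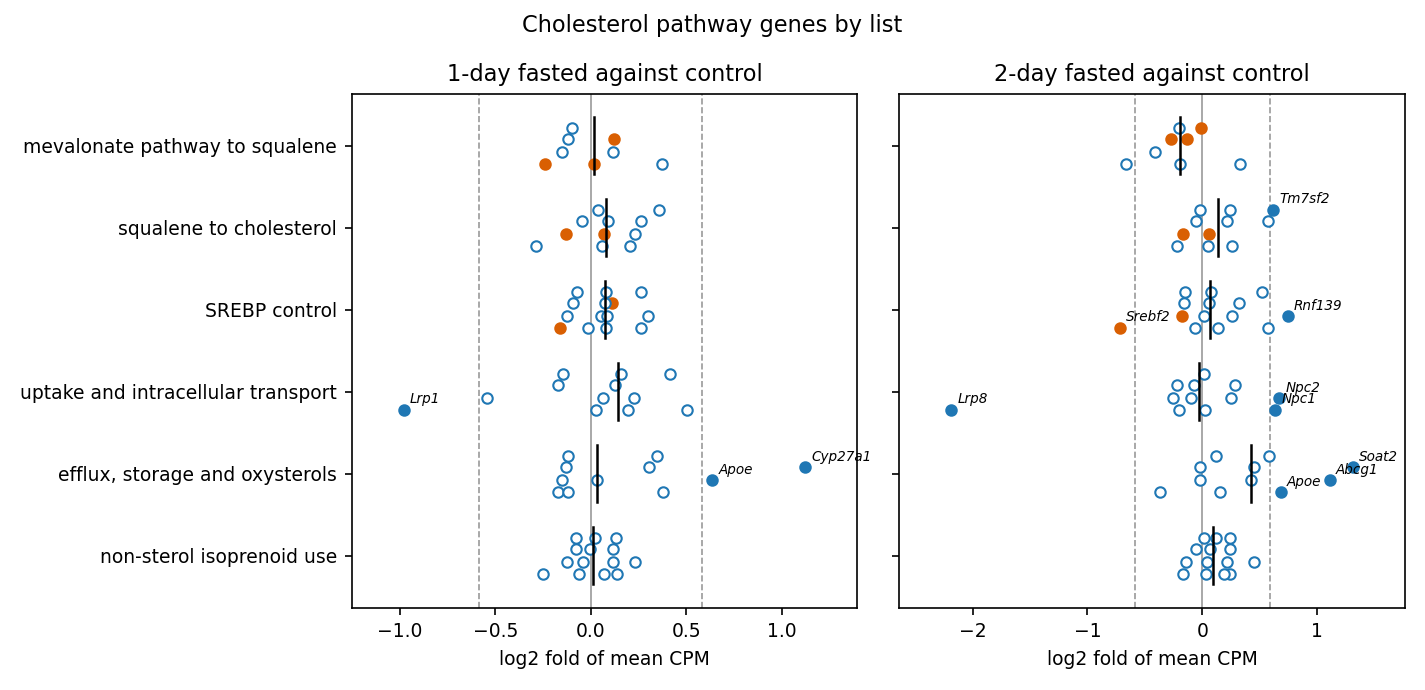
Log2 fold of mean CPM of most measured pathway genes after 1 day and after 2 days against control, by list; orange points are members, filled blue points other genes called at 1.5-fold (dashed lines) in the mean and both runs, hollow points the rest, and black bars medians of all measured genes of a list. After 2 days the arm to squalene has its median at -0.19 and the list of efflux, storage and oxysterols at 0.42, and Srebf2 lies at -0.72.

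Non-sterol use of isoprenoids, such as prenylation and ubiquinone, had 0 of 14 genes called in any comparison. Ggps1, which extends the product of Fdps to geranylgeranyl diphosphate, was at 24.3, 26.7 and 28.8 CPM, and the ubiquinone gene Coq2 at 85.9, 101.1 and 117.3 CPM, log2 folds after 2 days of 0.24 and 0.45.

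Likeness of pattern was measured as the root mean square difference of centred log2 CPM over the 6 libraries, among 9636 other genes of at least 5 CPM. For Srebf2 the closest genes were Lig4 (0.01), Irf4 (0.02) and Alad (0.02), and 266 genes lay within 0.1. The Irf4 means, for instance, were 170, 155 and 102 CPM. The other members had flatter patterns, with 1619 genes within 0.1 of Insig1, 1781 of Idi1, 2874 of Fdps, 3110 of Sqle, 3115 of Lss and 3367 of Hmgcs1. Closest were Ccdc9 to Insig1, Xpo1 to Idi1, Gm16586 to Fdps, Rnf219 to Sqle, Slirp to Lss and Snapc2 to Hmgcs1, at 0.01 or 0.02 each. Among members the closest pairs were Idi1 and Sqle at 0.055 and Fdps and Lss at 0.058, and many genes outside the members were closer. Sqle had rank 320 from Idi1, and Idi1 rank 874 from Sqle. Lss had rank 485 from Fdps, and Fdps rank 503 from Lss. The 3 groups give 3 independent points, so many genes share a pattern.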

How the data were processed

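RNA was sequenced from sorted leukaemia cells, and the authors' tables were the starting point. TopHat2 aligned the reads to mm10, as named in the submitters' processing notes, whereas the counting program and strand use are not stated. The deposited tables give read counts per gene in several classes. The authors' RPKM values equal total gene reads scaled by exon length and mapped reads, as tested on the files. Tables of 38355 (run 1) and 38924 genes (run 2) were joined on position for 37435 genes and on name with chromosome for 297. Counts became CPM with TMM scaling (edgeR 4.0.16, R 4.3.3) over the 6 libraries, and filterByExpr (minimum count 10) set which genes were kept. A log2 fold compares the mean CPM of both runs after adding 0.1 CPM. A call needs 1.5-fold in that mean and in run 1 and run 2. Because each group was counted as 1 sample, no test was run across genes. Intervals (95%) are exact binomial ones on pooled reads. Alternatives were DESeq2 1.42.0 size factors, library size alone, exon or unique reads, RPKM, other limits, filters and pseudocounts, pairing by run number, and leaving out each library. Named genes are the members and up to 4 called genes per list, except that some genes are not reported here; genes named without a call were added after their values were seen. The members and lists were chosen with earlier results of these data known. Msmo1 is listed as Sc4mol.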

Additional observations from a re-analysis of the deposited data

Results flagged for a closer look

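Insig1 was higher than control in both runs after 1 day (log2 fold of the means 0.112) and lower in both runs after 2 days (-0.179). The opposite directions drew attention to it, and the difference was not tested, since each group was counted as 1 sample. They are not particular to Insig1. Other pathway genes had them in both runs, among them Gramd1a (0.227 and -0.223), Stard3 (0.127 and -0.1) and Rabggtb (0.139 and -0.145). The share of all genes with such directions was not counted.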

How the results depend on the processing

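Srebf2 after 2 days against control ranged from -0.753 to -0.663 over 11 settings of scaling, read class, pseudocount, pairing and left-out library, and was called in each. With a 2-fold limit 0 members were called there, and with the looser limit of 0.322 (log2) 1 member, Srebf2, was called between the fasted samples. The count of other pathway genes called went from 4 (1 day against control), 8 (2 days against control) and 5 (2 days against 1 day) to 1, 2 and 1 with the 2-fold limit and to 10, 17 and 13 with the looser limit. Adding 1 CPM gave 1 in the first and 3 in the last comparison, and RPKM gave 3 in the last. Leaving out 1 library gave 3 to 7 in the last comparison, with 3 without 1-day run 1. All genes called numbered 1009, 2769 and 2007, against 323, 1447 and 957 with the 2-fold limit, 2386, 4883 and 3700 with the looser limit, and 343, 1256 and 779 with a mean of at least 5 CPM. Adding 1 CPM gave 471 in the first and 1202 in the last. Limits, floors and added CPM change counts by construction, and for RPKM and the left-out library the cause was not tested. Treating the run number as a replicate block left the counts at 0, 1 and 0 members, 4, 8 and 5 other pathway genes and 1009, 2769 and 2007 genes. These counts were fixed in advance, because a call already needs each run past the limit, so they are no check of stability. The same holds for the Srebf2 call under pairing by run number. Small log2 folds changed sign under some of the 11 settings, namely Fdps after 2 days (4), Hmgcs1 (1) and Lss (1) after 1 day, and Lss (6), Idi1 (2) and Sqle (1) between the fasted samples. The median of the members ranged from -0.085 to 0.028 after 1 day (sign changed in 2), from -0.185 to -0.112 after 2 days and from -0.16 to -0.072 between the fasted samples. Other scalings moved the median of all genes to at most 0.055. With each group counted as 1 sample, variation between mice was not measured, and shared reads limit Fdps, Lss and Idi1.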
